A study of Homo sapiens with 3 samples.

Results

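The p53 target genes are genes listed as activated by the transcription factor p53. Whether p53 acts on each of them in these cells was not tested. A set of 33 was examined in 22RV1 prostate cancer cells after silencing of SPINK1, a secreted inhibitor of trypsin that these cells express at a high level. The set was divided by role into feedback on p53 (3 genes), arrest of the cell cycle and of growth (13), apoptosis (9), DNA repair (4), and metabolism and stress (4). Members were found by their symbol among the gene names of the array's annotation, with control spots left out. Of the 33, 32 were found among the 43317 gene names of the array, and TIGAR was found only under its older name C12orf5. Of the 32, 30 were measured, that is, at least 1 probe was well above background in the same channel on all 3 arrays. TNFRSF10C, a decoy receptor for the death ligand TRAIL, and ZMAT3, a zinc finger protein that binds RNA, were not well above background in either channel on any array.

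Each of 3 arrays compared cells that carried 1 of 3 lentiviral short hairpins against SPINK1 (22RV1-shSPINK1, here hairpins 1, 2 and 3 by the number in the labels; Cy5 channel) with cells that carried a scrambled hairpin (22RV1-shSCRM; Cy3 channel). All cells were the same line, transduced with lentivirus and, per the labels, kept in serum-containing medium with puromycin; the labels give no time after transduction. There was 1 array per hairpin, so a difference between hairpins and a difference between arrays cannot be told apart, and the dyes were not swapped, so a dye effect of a gene and an effect of the hairpins cannot be told apart. The RNA came from whole cultures, in which fewer cells of a kind and less RNA per cell cannot be told apart. Values are log2 ratios of shSPINK1 over shSCRM, after background correction with an offset of 50 and loess normalization, of the brightest probe of a gene.

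Between 41.3% and 46.8% of gene spots were well above background in Cy5, and between 38.8% and 42.6% in Cy3. SPINK1 itself was at -3.71, -3.65 and -3.89 with hairpins 1, 2 and 3, so Cy5 was the silenced channel on every array. These values cannot tell the hairpins apart, and the number of each hairpin rests on the labels. All 8 markers of prostate epithelium on the list were measured. Among them, KRT8 and EPCAM fell and KRT18 rose. Of 8 markers of blood, endothelial and stromal cells, 5 were measured, and 0 passed an adjusted p under 0.05 by limma or an unadjusted p under 0.05. COL1A2 and PECAM1 were not well above background.

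In background, p53 is kept low in unstressed cells by MDM2, a ubiquitin ligase that is itself a p53 target. When p53 is stabilized after DNA damage or other stress, it binds as a tetramer to a response element made of a pair of 10-base half-sites, and the genes next to such elements can halt the cell cycle, start apoptosis, repair DNA or adjust metabolism. Response elements were looked for in promoter windows of RefSeq (GRCh38.p14), each running from 250 bases before to 50 bases after a transcription start. A match was defined as a p53 consensus element of 20 bases with at most 3 mismatches and a spacer of 0 or 1 base between its half-sites; the consensus is its own reverse complement, so both strands were covered. Of the 33 genes, 28 had at least 1 window, and 10 of them (35.7%) had a match, against 11.9% of all 27305 genes with a window. The members were listed for being p53 targets, so this difference describes the list. The matches of the following genes are shown because their values are described below or because they come closest to the consensus. Capitals mark the half-sites and a lower-case letter the spacer, and each is given 5′ to 3′ on the strand of its gene, which is the plus strand for all of them.
MDM2: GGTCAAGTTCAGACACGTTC
DDB2: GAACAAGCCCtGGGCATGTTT
AEN: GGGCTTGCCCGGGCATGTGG
GDF15: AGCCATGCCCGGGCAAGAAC
PMAIP1: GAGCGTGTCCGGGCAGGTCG

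The element of DDB2 (chr11:47214979-47214999) had 0 mismatches. Those of MDM2 (chr12:68808923-68808942) and AEN (chr15:88621306-88621325) had 2 each. Those of GDF15 (chr19:18386186-18386205) and PMAIP1 (chr18:59899811-59899830) had 3 each. FBXW7, FDXR, RB1, SESN1 and XPC also had a match, with 3 mismatches each. CDKN1A, CCNG1, CCNG2, PPM1D and POLH had none, which says only that these letters are not in the windows searched. The 250 bases before the transcription start are given below for PMAIP1, the member with the largest rise of those that passed, with its match in capitals, and for CCNG1, the member with the largest fall, all in lower case since no match was found (GRCh38.p14, plus strand).
PMAIP1 (chr18:59899746-59899995): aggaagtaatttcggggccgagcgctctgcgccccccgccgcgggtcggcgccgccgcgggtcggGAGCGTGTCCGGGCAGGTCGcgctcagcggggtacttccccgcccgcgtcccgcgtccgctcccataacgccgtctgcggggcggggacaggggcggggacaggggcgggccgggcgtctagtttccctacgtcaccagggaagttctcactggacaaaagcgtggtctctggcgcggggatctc
CCNG1 (chr5:163437321-163437570): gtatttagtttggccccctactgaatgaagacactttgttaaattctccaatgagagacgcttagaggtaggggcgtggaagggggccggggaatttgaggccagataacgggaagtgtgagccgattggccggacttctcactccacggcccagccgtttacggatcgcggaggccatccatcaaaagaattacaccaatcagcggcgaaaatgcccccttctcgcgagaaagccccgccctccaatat

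Silencing of SPINK1 was accompanied by small and mixed differences among the p53 target genes. CCNG1 (cyclin G1), CCNG2 (cyclin G2) and PPM1D (the phosphatase that reverses damage signals on p53) fell, PMAIP1 (the pro-apoptotic protein NOXA) and POLH (a DNA polymerase that copies past damage) rose, and the other 25 measured members did not pass an adjusted p under 0.05 by limma. The 5 of 30 members that passed make up 16.7%, against 13.5% of all 17061 genes tested. The 3 lower members are 10.0% of those measured, against 8.72% of all genes, and the 2 higher members are 6.67%, against 4.77% of all genes. A mean log2 ratio beyond 0.5 with an adjusted p under 0.05 was reached by 1 member, CCNG1 (3.33%), against 0.727% of all genes. The shares without the limit on size were near those of all genes, and the share with it rests on 1 gene.

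The mean log2 ratios of the 30 members ran from -0.55 to 0.52, and 22 of them lay within 0.2 of 0. The median was -0.07, against -0.01 for all genes, and it was -0.05, -0.04 and -0.09 with hairpins 1, 2 and 3. Of the 30, 12 (40.0%) were lower on all 3 arrays, against 29.0% of all genes, and 4 (13.3%) were higher on all 3, against 21.3% of all genes. The other 14 had both signs. At an unadjusted p under 0.05, 14 of 30 members passed by limma (46.7%), against 29.8% of all genes.

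**Figure D1:**
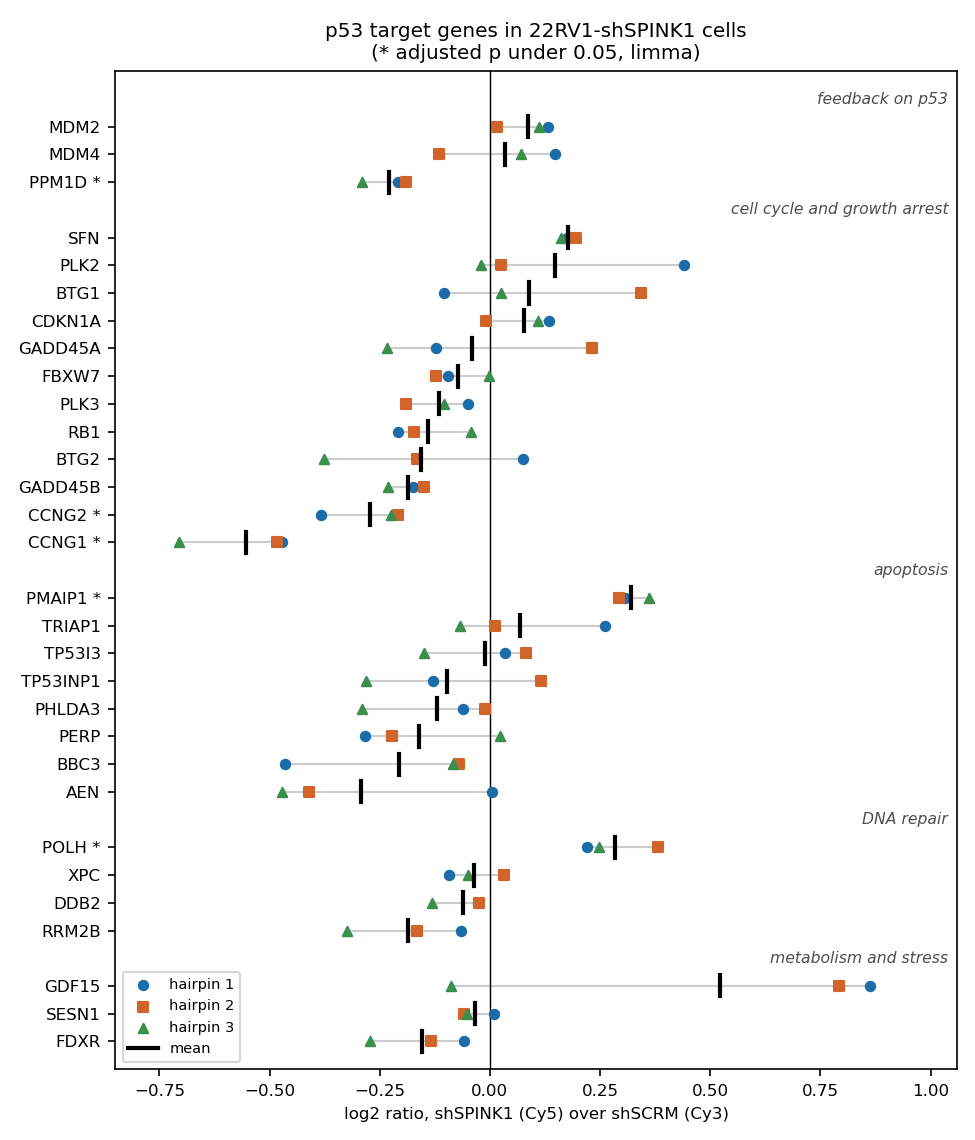
Log2 ratio of shSPINK1 over shSCRM (horizontal axis) of the 30 measured p53 target genes by role, with 1 symbol per hairpin and a bar at the mean of 3 arrays; asterisks mark an adjusted p under 0.05 by limma. CCNG1 lies at -0.71 to -0.47, and GDF15 splits between 0.86 and 0.79 with hairpins 1 and 2 and -0.09 with hairpin 3.

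Among the genes of feedback on p53, MDM2 was close to 0. Its log2 ratio was 0.13, 0.02 and 0.11 with hairpins 1, 2 and 3, a mean of 0.09 ± 0.06 (SD over n = 3 arrays; limma adjusted p = 0.306). All 3 arrays were above 0, and the sign of the mean turned (-0.13) with median centring, in which each array is set to a median log ratio of 0 over its gene spots and loess is left out. The probe (chr12:69238891-69238950, hg19 as for all probes here) read an intensity of 86.5, 70 and 73.6 in Cy5 and 111, 108 and 104 in Cy3. Before normalization Cy5 was the dimmer channel for the median gene spot on every array (17.7 to 24.2 against 32 to 38.2 in Cy3), so the intensities show how bright a gene was and not its ratio. MDM4, a relative of MDM2 that blocks the activity of p53, was at 0.15, -0.12 and 0.07, with a mean of 0.03.

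PPM1D fell to -0.21, -0.19 and -0.29 with hairpins 1, 2 and 3, a mean of -0.23 ± 0.05 (SD, n = 3) with an adjusted p of 0.0287 by limma. Its arrays lay close together, and the probe (chr17:58741635-58741694) was of middling brightness, with 220 to 263 in Cy5 and 399 to 421 in Cy3. A dimmer probe (chr17:58734142-58734201) with 42.5 to 51.9 in Cy5 and 61.5 to 66.8 in Cy3 was above 0 on every array, at 0.14, 0.10 and 0.10. The direction of PPM1D therefore depended on the probe, and it was not called with the mean of its probes (-0.06).

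Among the genes of arrest, CDKN1A, which encodes the inhibitor p21 of the cyclin-dependent kinases, was at 0.13, -0.01 and 0.11 with hairpins 1, 2 and 3. The mean was 0.08 ± 0.08 (SD, n = 3) with an adjusted p of 0.371 by limma. The gene was dim, at percentile 9.67 of brightness among the genes measured, with 24.8 to 35.5 in Cy5 and 39.2 to 47 in Cy3 (chr6:36652178-36652237), and Cy3 was well above background on 2 of 3 arrays. With the log ratios of the Feature Extraction software, which hold no offset, CDKN1A was at 0.57, 0.07 and 0.58 with a mean of 0.41 and an adjusted p of 0.171. The size of the CDKN1A value thus moved with the offset and did not pass the test in either form.

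CCNG1, whose product recruits a phosphatase to MDM2, had the largest difference of all members that passed. It fell to -0.47, -0.48 and -0.71 with hairpins 1, 2 and 3, a mean of -0.55 ± 0.13 (SD, n = 3), which is 1.47-fold lower, with an adjusted p of 0.00623 by limma. The probe (chr5:162871009-162871068) read 460, 371 and 332 in Cy5 and 869, 774 and 841 in Cy3, and the Feature Extraction log ratios gave nearly the same mean of -0.52, with an adjusted p of 0.11. A dimmer probe 5′ of it (chr5:162866292-162866351) was at -0.07, -0.29 and -0.24, below 0 on every array but by less. The mean of both probes was -0.38 with an adjusted p of 0.0113.

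CCNG2, a related cyclin that is linked to growth arrest, was at -0.38, -0.21 and -0.22 with hairpins 1, 2 and 3. The mean was -0.27 ± 0.10 (SD, n = 3) with an adjusted p of 0.0236 by limma. Both cyclins of the G group were thus lower on every array. The brightest CCNG2 probe (chr4:78087157-78087216) was dim, with 30.6 to 32.7 in Cy5 and 65.4 to 75.6 in Cy3, and the size of its fall depended on the offset: it was -0.47 with an offset of 16 and -0.88 with the Feature Extraction log ratios, where it was not called (adjusted p of 0.11). CCNG2 lost its call without hairpin 3, at -0.30 with an adjusted p of 0.0912.

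The other genes of arrest did not pass. The antiproliferative pair BTG1 and BTG2 varied between hairpins. BTG1 was at -0.10, 0.34 and 0.03, and BTG2 at 0.08, -0.17 and -0.38, so each had both signs. A second probe of BTG1 was below 0 on all 3 arrays, at -0.32, -0.22 and -0.24. GADD45A, a sensor of stress and DNA damage, was at -0.12, 0.23 and -0.23, and its relative GADD45B was between -0.23 and -0.15 on every array, with a mean of -0.18 and an adjusted p of 0.05004.

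The kinase PLK2 was at 0.44 with hairpin 1 and at 0.03 and -0.02 with hairpins 2 and 3, and PLK3 of the same family was between -0.19 and -0.05. SFN, which encodes 14-3-3 sigma and holds the mitotic kinase CDK1 in the cytoplasm, was the brightest member, with 18800 to 24200 in Cy5 and 22500 to 25700 in Cy3. It was at 0.17, 0.20 and 0.16, a mean of 0.18 with an adjusted p of 0.0528, and its sign turned to -0.14 with the Feature Extraction log ratios and to -0.12 with median centring. The brightest 5% of all genes moved in the same way, with a median of 0.13 after loess and -0.01 with Feature Extraction. The part of this shift in the value of SFN was not tested.

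RB1, the pocket protein that holds E2F factors inactive, had a mean of -0.14, with -0.21, -0.17 and -0.04 with hairpins 1, 2 and 3. Its probe was printed in 10 spots on each array, which shows the error from spot to spot within an array and not that between arrays. The spots of 1 array had an SD of 0.06, 0.07 and 0.05 on the log2 scale. The spots ran from -0.31 to -0.11 with hairpin 1, from -0.31 to -0.06 with hairpin 2 and from -0.10 to 0.05 with hairpin 3. These spots are repeats within an array and not replicates of a hairpin. FBXW7, which marks cyclin E for degradation, was between -0.12 and 0.00 on the 3 arrays, and its sign turned to 0.02 with the Feature Extraction log ratios.

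**Figure D2:**
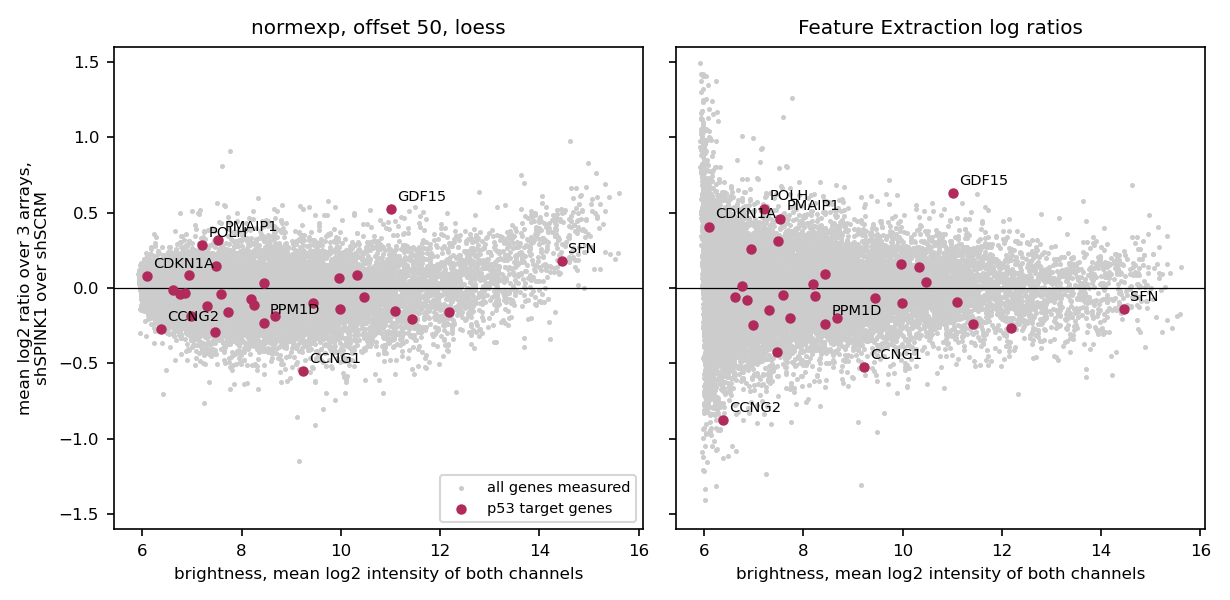
Mean log2 ratio over 3 arrays (vertical axis) against brightness, the mean log2 intensity of both channels (horizontal axis), for all genes measured (grey) and the 30 p53 target genes (coloured), after loess with an offset of 50 (left) and as Feature Extraction log ratios (right); genes outside the vertical range, such as SPINK1, are not shown. CCNG1 keeps its place, dim genes such as CCNG2 and CDKN1A lie nearer to 0 in the left panel, and SFN changes sign.

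Among the genes of apoptosis, PMAIP1 and BBC3 encode the BH3-only proteins NOXA and PUMA, which neutralize the survival proteins of the BCL2 family. PMAIP1 rose to 0.31, 0.29 and 0.36 with hairpins 1, 2 and 3. The mean was 0.32 ± 0.04 (SD, n = 3), or 1.25-fold, with an adjusted p of 0.011 by limma, and the arrays lay closer together than for most members. Its only probe (chr18:57570691-57570750) read 161, 141 and 131 in Cy5 and 177, 167 and 149 in Cy3. PMAIP1 was at 0.46 with the Feature Extraction log ratios (adjusted p of 0.11) and at 0.04 with median centring, where the median of all genes was -0.23. BBC3 was not higher on any array. It was at -0.47, -0.07 and -0.08, a mean of -0.21 with an adjusted p of 0.149, and hairpin 1 stood apart.

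AEN, a nuclease that degrades DNA in apoptosis, was at 0.00, -0.41 and -0.47 with hairpins 1, 2 and 3. The mean was -0.29 ± 0.26 (SD, n = 3) with an adjusted p of 0.0787 by limma, so hairpins 2 and 3 were low and hairpin 1 was not. A second, dimmer probe of AEN had a mean of -0.22. PERP, a membrane protein of desmosomes, was at -0.28, -0.22 and 0.02, and TP53INP1, a stress protein that promotes p53 activity, was at -0.13, 0.12 and -0.28. TRIAP1, an inhibitor of apoptosis, was at 0.26, 0.01 and -0.07. The remaining 2, the oxidoreductase TP53I3 and the AKT inhibitor PHLDA3, had means of -0.01 and -0.12. Of the 8 measured genes of apoptosis, 1 rose and 0 fell by limma at an adjusted p under 0.05 (12.5%, against 13.5% of all genes), 4 passed an unadjusted p under 0.05 (against 29.8% of all genes), and the median was -0.11.

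Among the genes of DNA repair, POLH encodes polymerase eta, which copies past damage left by ultraviolet light. It rose to 0.22, 0.38 and 0.25 with hairpins 1, 2 and 3, a mean of 0.28 ± 0.09 (SD, n = 3), or 1.22-fold, with an adjusted p of 0.0197 by limma. The probe (chr6:43588198-43588257) read 101 to 109 in Cy5 and 115 to 130 in Cy3. With the Feature Extraction log ratios it was at 0.53 (adjusted p of 0.111) and with median centring at 0.04 (adjusted p of 0.614). XPC and DDB2, which find damaged bases for nucleotide excision repair, had means of -0.04 and -0.06, and both turned sign with the Feature Extraction log ratios, to 0.01 and 0.04. DDB2, whose promoter window held the element with 0 mismatches, was at -0.03, -0.03 and -0.13. RRM2B, a subunit of ribonucleotide reductase, was at -0.06, -0.17 and -0.32, a mean of -0.18 with an adjusted p of 0.0943.

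Among the genes of metabolism and stress, GDF15 differed most between the hairpins of all members. This gene encodes a secreted stress cytokine of the TGF-beta family. It was at 0.86, 0.79 and -0.09 with hairpins 1, 2 and 3. The mean was 0.52 ± 0.53 (SD, n = 3) with an adjusted p of 0.0832 by limma, so the mean did not pass. Its probe (chr19:18499890-18499949) was bright on every array, with 2880, 2510 and 1230 in Cy5 and 2020, 2040 and 1940 in Cy3, and the intensities show that the Cy5 channel with hairpin 3 was the one that stood apart. Without hairpin 3 the mean was 0.83 with an adjusted p of 0.0239, and without hairpins 1 and 2 it was 0.35 and 0.39, with adjusted p of 0.138 and 0.215. SPINK1 was at -3.71, -3.65 and -3.89 with hairpins 1, 2 and 3. The cause of the split in GDF15 was not tested.

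The other members of this role did not pass. FDXR, which passes electrons to mitochondrial cytochromes, was lower on all 3 arrays, at -0.06, -0.13 and -0.27, with a mean of -0.15 and an adjusted p of 0.125 (unadjusted p = 0.0307). SESN1, a sestrin that restrains mTORC1, was at 0.01, -0.06 and -0.05. TIGAR, which lowers glycolysis, was found as C12orf5, is not counted among the 30 and was at 0.04, 0.04 and 0.00, with a Cy3 signal well above background on 1 of 3 arrays.

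Of the 30 measured members, 10 had more than 1 probe above background, and in 2 of these, BTG1 and PPM1D, the probes had opposite signs. In CCNG1 the probes differed in size by 0.35. Each probe has 60 bases, of which the first 30 are shown for these 3 genes, since the direction or size of their result depended on the probe. The brightest probe, which stands for the gene, is named first.
PPM1D, brightest (mean -0.23): tttcatcccagaccaatggcattattaggt
PPM1D, other (mean 0.11): ctataatagtcaagaaacctgtgtgatgac
BTG1, brightest (mean 0.09): aagggatcgggttaccgttgtattcgcatc
BTG1, other (mean -0.26): aagtcctagggtggtttcagtttctcccag
CCNG1, brightest (mean -0.55): gctattggaggagtcacactaatactatca
CCNG1, other (mean -0.20): tcagaaactgctacaccagctgaatgccct

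Whether the probes of a gene read different transcripts was not tested. The probes of MDM4 were all above 0 in the mean, from 0.03 to 0.21, and those of DDB2 both below it, at -0.06 and -0.21. For CCNG2, the probes above background were at -0.27 and -0.17.

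The result was compared with genes around the p53 pathway from 3 further lists. Of 30 genes for p53 and its upstream control, 27 were measured, 2 fell and 1 rose (11.1%), and the median was -0.02. SIRT1, a deacetylase that acts on p53, fell to -0.20, -0.48 and -0.32, with an adjusted p of 0.0205 by limma. CDKN2A, the locus of p16 and of the MDM2 inhibitor ARF, fell to -0.29, -0.34 and -0.14, with an adjusted p of 0.0308. NPM1, a nucleolar protein that binds ARF, rose to 0.37, 0.45 and 0.34, with an adjusted p of 0.0079. NPM1 is among the brightest genes, at percentile 99.2, its mean was 0.39 after loess and 0.16 by Feature Extraction, and its 2 other probes were below 0 (-0.18 and -0.06).

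Of 40 further p53 targets, 34 were measured, 5 fell and 2 rose (20.6%), and the median was -0.05. The largest falls were those of TNFRSF10D, a decoy receptor for TRAIL (mean -0.37), BAX, which opens the mitochondrial membrane (-0.34), and SERTAD1, a cofactor of cyclin D complexes (-0.32). BAX was at -0.40, -0.32 and -0.31 with hairpins 1, 2 and 3 and had an adjusted p of 0.0094, but its other probe was at -0.01. The rises were those of ASCC3, a helicase (0.38), and TNFRSF10B, the death receptor DR5 (0.27). TNFRSF10B was at 0.29, 0.32 and 0.21, with an adjusted p of 0.0182.

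Of 20 cell cycle genes that p53 represses through p21 and the DREAM complex, all were measured, 3 fell and 0 rose by limma (15.0%), 4 passed an unadjusted p under 0.05 (against 29.8% of all genes), and the median was -0.06. CDC20, an activator of the anaphase-promoting complex, fell to -0.45, -0.30 and -0.26, with an adjusted p of 0.0142. BUB1B, a kinase of the spindle checkpoint, fell to -0.29, -0.27 and -0.36, with an adjusted p of 0.0125. The kinesin KIF23 had a mean of -0.23 with an adjusted p of 0.0378, but its other probe was at -0.05. Without hairpin 3, 0 of the 20 passed by limma, when 2.72% of all genes did. The percentages of these lists lay on both sides of the 13.5% of all genes.

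The processing decided how many members were called, as it did for all genes. With median centring 22 members (73.3%) fell and 0 rose by limma, against 60.6% and 0.533% of all genes, when the median of all genes was -0.23 and that of the members -0.38. The distance between these medians was -0.15, against -0.06 with loess. With the Feature Extraction log ratios, 3 of all 17061 genes passed the adjusted p by limma, and none of the 30 members was among them. At an unadjusted p under 0.05, 11 members passed (36.7%), against 24.0% of all genes. Without hairpins 1, 2 and 3 in turn, 5, 3 and 1 of the 5 called members kept their call, when 18.6%, 6.12% and 2.72% of all genes passed, and CCNG1 was the 1 that did so without hairpin 3. PPM1D and POLH also lost their call without hairpin 2, at -0.25 and 0.23. Without hairpin 1, 3 more members were called lower: AEN (-0.44), BTG2 (-0.27) and RRM2B (-0.24). The sign of CCNG1, CCNG2, PMAIP1 and POLH was the same under every alternative run, and that of PPM1D under every one but the deposited table of 1 value per gene, where it was at 0.04.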

How the data were processed

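RNA of 22RV1-shSPINK1 cells (Cy5) was hybridized against that of 22RV1-shSCRM cells (Cy3) on 3 two-color Agilent arrays of 1 slide. The authors deposited scanner files with spot and background intensity, not normalized, flags for spots above background and for outliers, and the log10 ratio of Feature Extraction 11.5.1.1, which is corrected for background and dye. They also deposited log2 values per gene name. For genes with 1 probe, 99.9% on each array of these lay within 0.02 of the Feature Extraction log2 ratio. The study's methods state Lowess normalization and an adjusted p under 0.05 by Benjamini-Hochberg for its differentially expressed genes. For the genes called lower they state a log2 limit of 0.5 and a confidence interval. No test is named for the arrays.

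Intensities were corrected with normexp (offset 50) and normalized by loess within arrays (R 4.3.3, limma 3.58.1), with control spots and outlier spots (0.203% of values) at weight 0, and replicate spots were averaged per probe. Probes were kept if either channel was well above background on all 3 arrays (21443 of 58201 probes), and the brightest kept probe represented each of 17061 genes. Mean log2 ratios were tested against 0 by the moderated test of limma, adjusted over all genes (Benjamini-Hochberg). The step was also run on simulated data with independent values and changes larger than the mean of any member. That run therefore says nothing on calls of the size found here. The labels do not say that the arrays came from separate cultures, so p-values measure the spread between these arrays, which may be technical, and leave out that of the control. The number of arrays limits the precision, and the shared slide could not be used as a block.

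Values of each array are given for CDKN1A, MDM2, members with an adjusted p under 0.05, members with a mean beyond 0.3 or with both signs over a range above 0.3, and some others of the same roles. From each pathway list at most 3 rises and 3 falls were named, and some genes of the lists are not reported here. The members and lists were chosen with earlier results of these data known. TIGAR was matched to C12orf5 through RefSeq synonyms, and probes were placed by the array's own annotation (hg19). Counts and plots were made in Python 3.11.15 with pandas 2.3.3 and matplotlib 3.10.9. Alternatives covered the background correction, normalization, source of values, filter, probe rule, test and leaving out each array.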

Additional observations from a re-analysis of the deposited data

How the results depend on the processing

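Each array is already a ratio of shSPINK1 to the control on that array, so the test against 0 is a paired comparison. Only 1 group of arrays exists, so no further pairing was possible. The counts of called members rested on the arrays and the processing, as did those of all genes: of these, 61.1% passed with median centring, 3 and 3 genes by Feature Extraction and in the deposited table, 0 by the t-test, and 464 to 3178 when an array was left out. Members lower past an adjusted p of 0.05 (3) numbered 22 with median centring, 0 with the Feature Extraction log ratios, the deposited table and the one-sample t-test of the same values, and 1 to 6 when an array was left out. Members higher (2) numbered 0 under each of these settings and 1 to 2 when an array was left out. At an unadjusted p under 0.05, 11, 10 and 7 members passed in those 3 settings (36.7%, 33.3% and 23.3%, against 24.0%, 22.5% and 17.7% of all genes). Members past the threshold and beyond 0.5 (1) numbered 6 with median centring and 0 with Feature Extraction, the deposited table, the mean of a gene's probes and the t-test. The median of the members was -0.38 with median centring, -0.035 without background correction, and -0.078 to -0.028 when an array was left out.

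Of the lists, p53 and its upstream control (3 genes) had 20 with median centring, 0 with Feature Extraction, the deposited table and the t-test, and 1 to 5 when an array was left out, and its median was -0.31 with median centring. Further p53 targets (7) had 21 and 0 under the same settings and 2 without replicate 3, with medians of -0.25 with median centring, -0.105 in the deposited table and -0.0198 without a filter. The DREAM list (3) had 17 and 0 under the same settings and 0 to 4 when an array was left out (0 without replicate 3), with medians of -0.38 with median centring and -0.025 without background correction.

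Signs turned in 23 of the recomputed means of single members, 1 of them, PPM1D, a called member. With median centring these were MDM2 (-0.13), MDM4 (-0.29), BTG1 (-0.27), PLK2 (-0.12), SFN (-0.12) and TRIAP1 (-0.29). With the Feature Extraction log ratios they were SFN (-0.14), FBXW7 (0.025), XPC (0.013) and DDB2 (0.041), and in the deposited table PPM1D (0.04), BTG1 (-0.013), SFN (-0.14), FBXW7 (0.023) and XPC (0.010). Without background correction they were GADD45A (0.000261) and TP53I3 (0.00597), and with the mean of a gene's probes BTG1 (-0.086). When an array was left out, the mean ran from -0.023 to 0.109 for MDM4, from -0.028 to 0.137 for TRIAP1, from -0.038 to 0.184 for BTG1, from -0.178 to 0.054 for GADD45A and from -0.058 to 0.058 for TP53I3. The cause was not tested. Of the other means, 287 kept their direction and side of the threshold, 25 lost the call and 24 gained one. Log2 ratios of dim genes such as CCNG2 and CDKN1A are drawn toward 0 by the offset.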
